A study of Caenorhabditis elegans with 12 samples.

Results

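The sdz genes (SKN-1-dependent zygotic) of Caenorhabditis elegans were taken as every gene whose symbol is sdz followed by a number. This rule gave 32 genes, measured by 35 of the 21541 probe sets (17675 genes) on the arrays, with sdz-2, sdz-3 and sdz-14 on several probe sets each. Expression was measured on Affymetrix C. elegans arrays, which report each probe set as a log2 value and a detection call of present, marginal or absent. The groups were lin-54(n2990) embryos and wild-type N2 embryos, both from animals grown at 25°C, and lin-54(n3423) germlines and wild-type N2 germlines, both dissected from adults at 20°C, 24 hours after the L4 stage, with 3 biological replicates in each. The n2990 allele is a missense, partial loss-of-function change in a DNA-binding domain, and n3423 is a deletion null that is kept over a balancer chromosome. The embryos were harvested by bleaching young adults and were not staged, and the germlines run from the tip through late pachytene. Allele, temperature, RNA amplification and labeling kit all differ between the tissues, so these cannot be told apart from tissue.

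SKN-1 is a maternally supplied transcription factor that specifies the EMS blastomere, the founder cell whose daughters make the mesodermal MS and the endodermal E lineages. It switches on the GATA factor genes med-1 and med-2, which in turn act with it on end-1 and end-3 in the gut lineage. The sdz genes were collected as genes that are transcribed from the embryo's own genome and depend on SKN-1, and for most of them the product has no settled role. LIN-54 is a sequence-specific DNA-binding subunit of DRM, a complex that sits at promoters and acts on transcription in embryos and in the germline. DRM also holds the worm E2F and DP proteins, which bind DNA too, and a retinoblastoma protein.

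The lin-54 probe set was called present on 0 of 3 lin-54(n3423) germline arrays and on 3 of 3 wild-type germline arrays, with mean log2 values of 8.40 ± 0.41 and 10.57 ± 0.77 (SD, n = 3 each). In lin-54(n2990) embryos, whose allele leaves the transcript in place, it was present on 3 of 3 arrays at 10.53 ± 0.17, against 10.10 ± 0.09 on 3 of 3 arrays in wild-type embryos (SD, n = 3 each). Each mutant embryo array had 10826 to 11818 present calls and each wild-type embryo array 11737 to 11985. On germline arrays 5954 to 8001 were present in the mutant and 6347 to 8209 in wild-type. The germline arrays numbered 1 stood apart in both genotypes, with correlations of 0.928 to 0.933 with the other arrays of their genotype, against 0.984 to 0.988 between the arrays numbered 2 and 3. Of the embryo arrays, mutant array 2 had the fewest present calls (10826). It correlated at 0.959 to 0.979 with the other mutant embryo arrays, against 0.991 between mutant arrays 1 and 3.

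More sdz probe sets were detected in embryos than in germlines. In wild-type embryos 24 of the 35 sdz probe sets (68.6%) were called present on all 3 arrays, where 50.6% of all probe sets were, and 8 were present on none, where 40.4% of all were. On all 3 mutant embryo arrays 27 of 35 were present, where 46.4% of all were. In wild-type germlines 4 of 35 (11.4%) were present on all 3 arrays, where 25.8% of all probe sets were, and 27 of 35 (77.1%) were present on none, where 58.1% of all were. Mean log2 values of the members ran from 4.24 to 12.30 in mutant embryos and from 4.26 to 11.62 in wild-type embryos, with medians of 9.11 and 8.13. They ran from 3.81 to 7.71 in mutant germlines and from 3.75 to 9.49 in wild-type germlines, with medians of 5.58 and 5.44. The tissues were deposited in separate tables, so no level was tested between them.

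Not every member was detected. 6 probe sets, those of sdz-3 (both), sdz-12, sdz-20, sdz-34 and sdz-35, were called present on none of the 6 embryo arrays, and none of these was called present on a germline array. Of the 32 genes, 31 matched the RefSeq annotation of the WBcel235 assembly by symbol, and that annotation lists sdz-3 and sdz-34 as pseudogenes. The genes are spread over all chromosomes, with 13 of 32 (40.6%) on chromosome II, which holds 17.6% of all genes on the arrays. Only sdz-9 and sdz-10 are direct neighbours of each other there among coding genes and pseudogenes.

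The embryo comparison asked whether loss of LIN-54 function altered these genes. Of the 32 sdz genes, 14 were called higher in lin-54(n2990) embryos and none was called lower. Calls required a fold change of 1.5 or more and an unadjusted p of 0.01 or less from limma, a linear model that shares the spread over all probe sets. By this rule 15 of the 35 sdz probe sets (42.9%), from 14 genes, were called higher, where 3.38% of all probe sets were, and 0 were called lower, where 1.53% of all were. The called log2 changes ran from 0.62 to 1.17, which is 1.53- to 2.25-fold. The median log2 change was 0.72 over the sdz probe sets and 0.0038 over all probe sets, and 32 of 35 changes were positive, where 50.7% of all were. The lowest mutant array exceeded the highest wild-type array for 27 sdz probe sets (77.1%; 15.2% of all probe sets) and the reverse held for 1, a probe set of the undetected sdz-3 (17.6% of all). With adjustment over all probe sets tested, 1 member, sdz-4, reached a Benjamini-Hochberg adjusted p of 0.05 or less among the higher probe sets, as did 0.246% of all, and 0 did among the lower ones, as did 0.0186% of all. In bulk embryos, more cells of a type and more RNA per cell cannot be told apart.

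**Figure D1:**
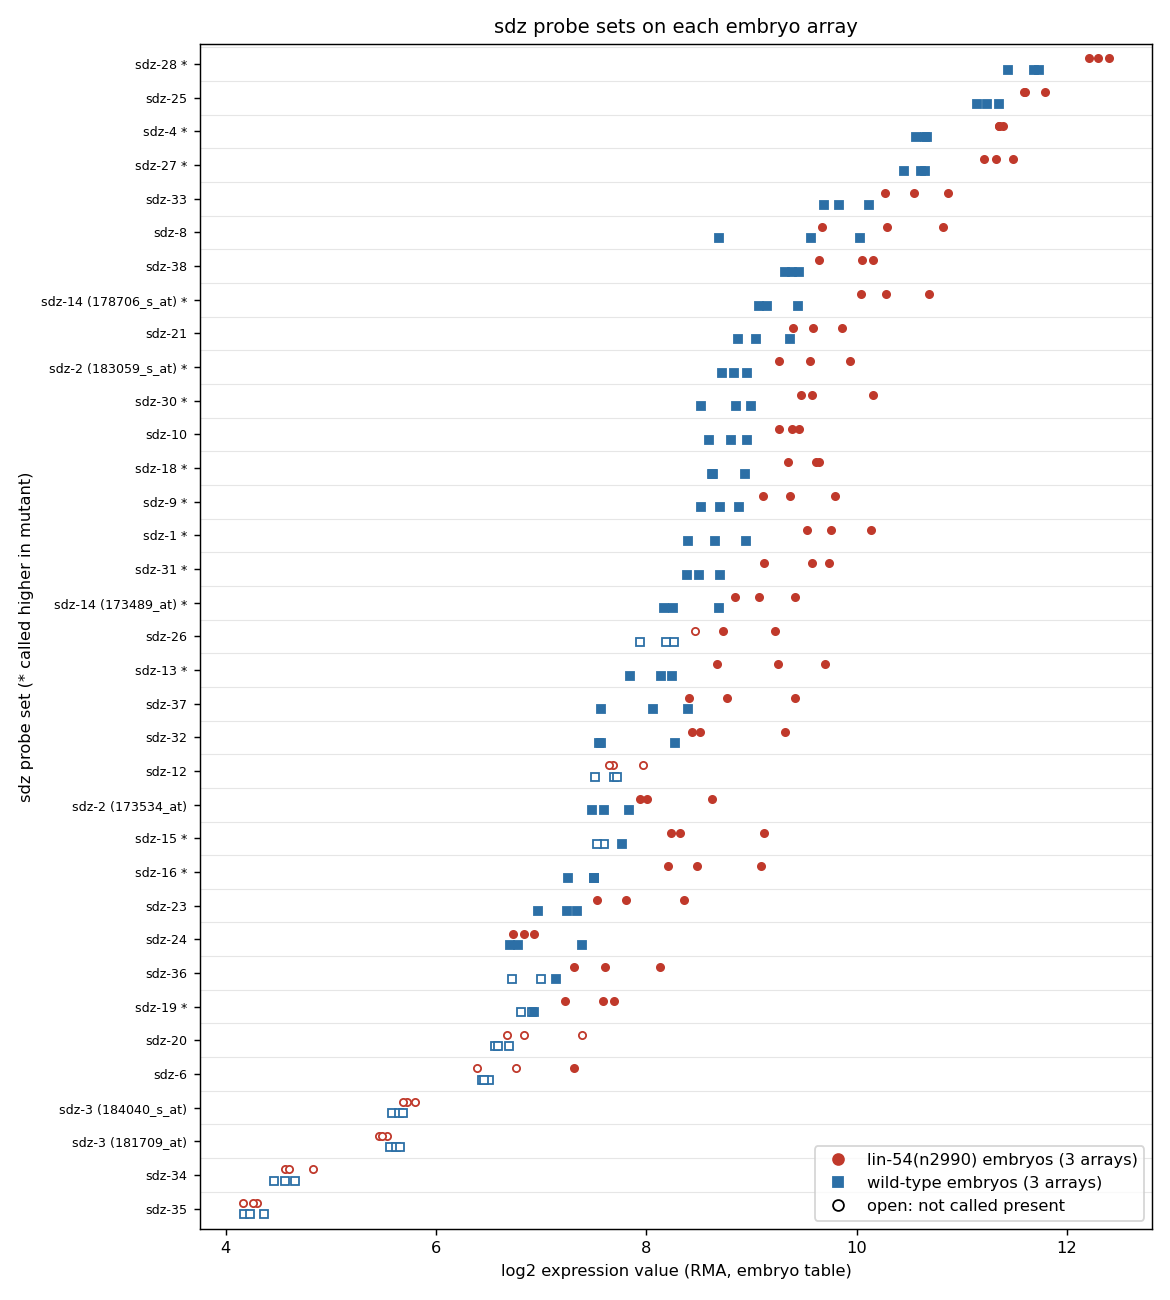
Log2 expression value (x axis) of each of the 35 sdz probe sets (rows, ordered by wild-type mean) on the 3 lin-54(n2990) embryo arrays (red circles, upper line of each row) and the 3 wild-type embryo arrays (blue squares, lower line). Open symbols were not called present and asterisks mark the 15 probe sets called higher; in 27 rows the red circles all lie to the right of the blue squares.

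The changes of largest size were those of sdz-16, sdz-1, sdz-13 and 1 probe set of sdz-14, each of which was raised over 2-fold. sdz-16 (chromosome V) measured 8.49, 9.09 and 8.21 in mutant embryos, against 7.25, 7.51 and 7.51 in wild-type embryos. Its log2 change was 1.17 (standard error 0.23, 2.25-fold, adjusted p = 0.0979 from limma). Its wild-type signal was among the 3 lowest of the members that were present on all wild-type embryo arrays. sdz-1 (chromosome III), which encodes a protein with an RNA recognition motif, measured 9.76, 10.14 and 9.53 in mutant embryos and 8.40, 8.94 and 8.65 in wild-type embryos, a mean difference of 1.14 (log2, standard error 0.20, adjusted p = 0.0906). sdz-13 (chromosome IV) measured 9.25, 9.70 and 8.67 in mutant embryos and 7.85, 8.24 and 8.14 in wild-type embryos, a mean difference of 1.13 (log2, standard error 0.27, adjusted p = 0.112). In each of these genes the second mutant array was the highest and the third the lowest, and the lowest mutant array still exceeded the highest wild-type array.

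sdz-14 (chromosome I) was called on both of its probe sets. Probe set 178706_s_at measured 10.28, 10.69 and 10.05 in mutant embryos and 9.08, 9.44 and 9.15 in wild-type embryos, with a mean difference of 1.12 (log2, standard error 0.19, adjusted p = 0.0840). Probe set 173489_at measured 8.85, 9.42 and 9.07 in mutant embryos and 8.25, 8.69 and 8.17 in wild-type embryos, with a mean difference of 0.74 (log2, standard error 0.20, adjusted p = 0.123). The probe sets shared the direction and differed in size. For sdz-2 (chromosome X) only 183059_s_at was called, at 9.56, 9.94 and 9.26 in mutant embryos and 8.83, 8.96 and 8.72 in wild-type embryos (log2 change 0.75, standard error 0.18). Its other probe set, 173534_at, measured 8.01, 8.63 and 7.94 in mutant embryos and 7.59, 7.84 and 7.48 in wild-type embryos, a log2 change of 0.56 that lies just under the fold threshold. Both sdz-2 probe sets had mutant arrays above all wild-type arrays.

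The highest array signals were those of sdz-28, sdz-25 and sdz-4, followed by sdz-27. A log2 value also depends on the probes, so the order of signals between genes is no order of abundance. sdz-28 measured 12.29, 12.40 and 12.21 in mutant embryos, against 11.74, 11.44 and 11.69 in wild-type embryos, and was called higher by 0.68 (log2, standard error 0.11, adjusted p = 0.0784). sdz-25 measured 11.60, 11.79 and 11.60 in mutant embryos and 11.36, 11.15 and 11.24 in wild-type embryos. Its log2 change of 0.41 (standard error 0.10) fell short of the fold threshold although its groups did not overlap. sdz-4 had the smallest standard error of all members, with 11.36, 11.39 and 11.35 in mutant embryos and 10.57, 10.65 and 10.67 in wild-type embryos. Its log2 change of 0.74 (standard error 0.069) had the lowest p-value of the list (adjusted p = 0.0318 from limma). sdz-27 measured 11.32, 11.49 and 11.22 in mutant embryos and 10.61, 10.46 and 10.65 in wild-type embryos, a mean difference of 0.77 (log2, standard error 0.10, adjusted p = 0.0670). These 4 were the only probe sets present on all 6 embryo arrays with a wild-type mean of at least 10. Their changes spanned 0.41 to 0.77, and those of the 20 other probe sets present on all 6 arrays spanned −0.12 to 1.17.

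Of the remaining called members, sdz-31 and sdz-18 held up best when arrays were left out. sdz-31 measured 9.57, 9.74 and 9.12 in mutant embryos and 8.39, 8.50 and 8.70 in wild-type embryos (log2 change 0.95, standard error 0.18). sdz-18 measured 9.65, 9.61 and 9.35 in mutant embryos and 8.63, 8.94 and 8.63 in wild-type embryos (log2 change 0.80, standard error 0.13). Both kept their call whichever embryo array was left out, as did sdz-1, sdz-4, sdz-14 (178706_s_at), sdz-27 and sdz-28. sdz-30 measured 9.58, 10.15 and 9.47 in mutant embryos and 8.86, 8.52 and 8.99 in wild-type embryos (log2 change 0.94, standard error 0.22). It was the 1 called member that lost its call when the replicate number was fitted as a block (adjusted p = 0.102 from limma). sdz-9, the neighbour of sdz-10, measured 9.37, 9.80 and 9.11 in mutant embryos and 8.70, 8.88 and 8.52 in wild-type embryos (log2 change 0.72, standard error 0.20), and sdz-10 measured 9.45, 9.38 and 9.26 in mutant embryos and 8.96, 8.80 and 8.60 in wild-type embryos (log2 change 0.58, standard error 0.12). The neighbours thus had like changes, of which that of sdz-10 fell just short of the fold threshold.

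For 2 called genes detection itself differed between the groups. sdz-15 was present on all 3 mutant embryo arrays, at 8.32, 9.12 and 8.24, and on 1 of 3 wild-type arrays, at 7.60, 7.77 and 7.53 (log2 change 0.93, standard error 0.24). sdz-19 was present on all 3 mutant embryo arrays, at 7.59, 7.69 and 7.23, and on 1 of 3 wild-type arrays, at 6.81, 6.91 and 6.93 (log2 change 0.62, standard error 0.13). In both the lowest mutant array exceeded the highest wild-type array. sdz-26 was present on 2 of 3 mutant embryo arrays and on 0 of 3 wild-type arrays, at 8.73, 9.22 and 8.46 in mutant embryos and 7.94, 8.26 and 8.18 in wild-type embryos, and was not called (log2 change 0.68, adjusted p = 0.140). Summed over the list, 27 to 29 sdz probe sets were present per mutant embryo array and 24 to 26 per wild-type embryo array.

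The 14 probe sets that were detected on at least 1 embryo array but not called had log2 changes of −0.12 to 0.96. In 11 of them the lowest mutant array exceeded the highest wild-type array (15.2% of all probe sets). sdz-32 had the largest of these changes, with 8.43, 9.32 and 8.52 in mutant embryos and 7.55, 8.27 and 7.57 in wild-type embryos. sdz-8, a member of the short-chain dehydrogenase family, measured 9.67, 10.29 and 10.83 in mutant embryos and 8.70, 9.56 and 10.04 in wild-type embryos, so its groups overlapped. sdz-37 measured 8.77, 9.41 and 8.41 in mutant embryos and 7.57, 8.40 and 8.07 in wild-type embryos, and sdz-33 measured 10.27, 10.87 and 10.54 in mutant embryos and 9.69, 10.12 and 9.83 in wild-type embryos. The differences between arrays of the same number were 0.88 to 1.05 for sdz-32, 0.72 to 0.97 for sdz-8 and 0.59 to 0.75 for sdz-33, in each case a narrower range than that of either genotype. For sdz-37 they were 0.34 to 1.20. With the replicate number as a block, sdz-8, sdz-32, sdz-33, sdz-36 and sdz-37 were called and sdz-30 was lost, which gave 19 sdz probe sets higher (4.27% of all) and 0 lower (3.62% of all). In that fit sdz-4 (adjusted p = 0.0481), sdz-14 (178706_s_at, adjusted p = 0.0461) and sdz-32 (adjusted p = 0.0448) reached an adjusted p of 0.05 or less, as did 0.641% of all probe sets, and 0 members did so among the lower ones, as did 0.362% of all.

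sdz-24 was the detected member with a negative difference. It measured 6.73, 6.93 and 6.84 in mutant embryos and 6.78, 6.71 and 7.39 in wild-type embryos, was present on all 6 arrays, and had a log2 change of −0.12 (standard error 0.19). It also had the lowest wild-type signal of the members present on all wild-type embryo arrays, followed by sdz-23. sdz-23 measured 7.81, 8.36 and 7.53 in mutant embryos and 6.97, 7.34 and 7.24 in wild-type embryos (log2 change 0.72, standard error 0.23, adjusted p = 0.145 from limma, not called). The undetected probe sets stayed close to 0, with log2 changes of −0.12 to 0.35. For sdz-3 they were −0.12 on 181709_at (5.54, 5.46 and 5.48 in mutant embryos, 5.56, 5.62 and 5.66 in wild-type embryos) and 0.10 on 184040_s_at (5.72, 5.80 and 5.69 in mutant embryos, 5.58, 5.65 and 5.69 in wild-type embryos).

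**Figure D2:**
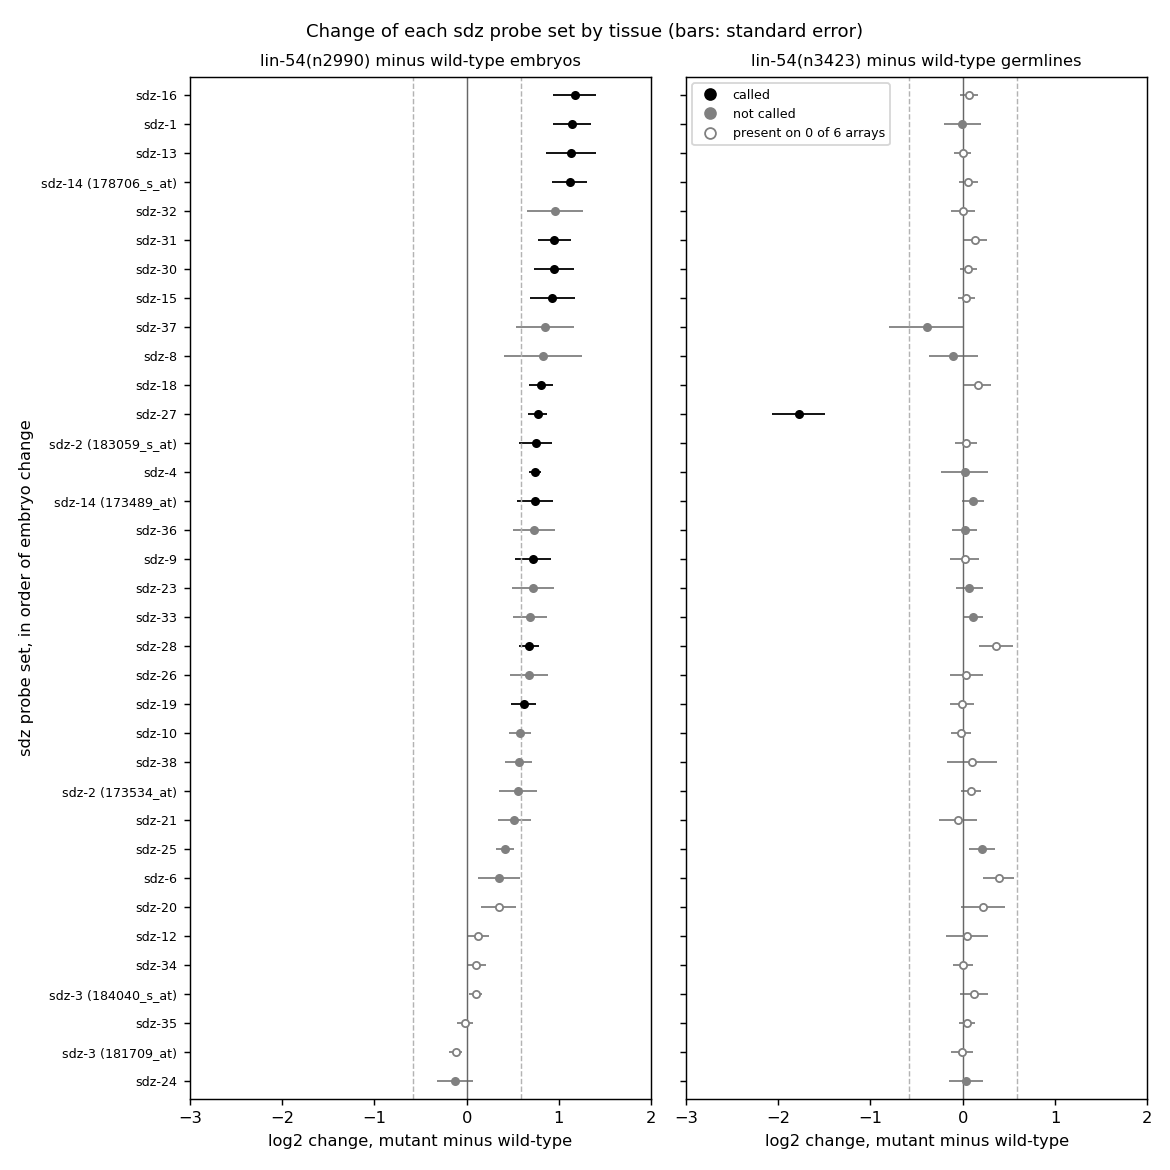
Log2 change, mutant minus wild-type (x axis), of each sdz probe set (rows, in order of embryo change) in embryos (left) and germlines (right), with limma standard errors as bars and dashed lines at a 1.5-fold change. Black points were called, gray points were not, and open points were present on 0 of 6 arrays of that tissue; 15 embryo points are black on the right side, and the 1 black germline point, sdz-27, lies at −1.78.

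The rise of the list was not of the same size on every array. The mean log2 value over the 35 sdz probe sets was 8.66, 9.02 and 8.55 on the mutant embryo arrays and 7.998, 8.20 and 8.14 on the wild-type embryo arrays. The second mutant array was the highest of the mutants for 31 of the 35 probe sets and the third the lowest for 26, and the first wild-type array was the lowest of the wild types for 23. Without the second mutant array the median log2 change was 0.54 over the sdz probe sets and −0.017 over all probe sets. Between arrays of the same number, 28 of the 35 probe sets were higher in the mutant in all 3 pairs. The share of all probe sets with this pattern was not counted. The count of probe sets called higher was 8 without wild-type replicate 1 (1.91% of all probe sets) and 9 without wild-type replicate 3 (1.96% of all). It was 10 without mutant replicate 1 (1.70% of all) and 11 and 13 without mutant replicate 2 or wild-type replicate 2 (2.26% and 3.34% of all). It was 19 without mutant replicate 3, where 6.77% of all were called higher and 5.62% lower.

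Other lists of stage-dependent genes were read on the same embryo arrays. The 9 of 16 listed early zygotic genes outside the SKN-1 pathway that are on the arrays had a median log2 change of 0.67. The mutant arrays all lay above the wild-type arrays for 8 of these 9 probe sets (15.2% of all), and 4 were called higher (3.38% of all): pes-10 (0.97) and pes-1 (0.75), known from reporter lines for expression in early embryos, hlh-25 (1.07), a basic helix-loop-helix gene of the REF-1 family, and hnd-1 (0.78), the Hand factor of early mesoderm. With the replicate block 5 were called (4.27% of all), with tbx-38 (0.67), a T-box gene, added. Maternal RNAs that are lost in early embryos (17 genes, 26 probe sets) had a median of 0.71. Of these probe sets 2 were called higher (3.38% of all) and 0 lower (1.53% of all). The 2 were both of the eggshell gene cpg-2 (2.11 and 2.20). With the replicate block 9 were called higher (4.27% of all). The mutant arrays all lay above the wild-type arrays for 3 of the 26 (15.2% of all). Genes of late embryo differentiation such as muscle myosins and cuticle collagens (18 of 20 genes, 31 probe sets) had a median of −0.47, with 0 called lower (1.53% of all), 15 whose mutant arrays all lay below the wild-type arrays (17.6% of all) and 7 called lower with the replicate block (3.62% of all). Germline marker genes (12 genes, 17 probe sets) had a median of 0.65. Of these probe sets 3 were called higher (3.38% of all), and 6 with the replicate block (4.27% of all). The 3 were those of the P granule helicase gene glh-1 (1.07 and 1.12) and of the synaptonemal complex gene syp-1 (2.35). For 8 of the 17 the mutant arrays all lay above the wild-type arrays (15.2% of all). The somatic gonad and body markers (9 of 10 genes, 11 probe sets) had a median of −0.18, with 0 called higher (3.38% of all) and 0 lower (1.53% of all). The mutant arrays all lay below the wild-type arrays for 4 of these probe sets (17.6% of all), and 9 were present on no embryo array. The median of all probe sets beside these lists was 0.0038.

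On the 3 mutant and 3 wild-type embryo arrays, the mean of the maternal list was 10.31, 10.83 and 9.53 in mutants and 9.13, 9.81 and 9.25 in wild-type, and that of the late list was 9.23, 8.59 and 9.55 in mutants and 9.96, 9.61 and 9.98 in wild-type. The second array of each genotype was thus the highest for the maternal RNAs and the lowest for the late genes. Summed on the linear scale, the late list ran from 46048 to 79390 on mutant arrays and from 78665 to 93401 on wild-type arrays. The sdz list, at 27182 to 34433 on mutant arrays and 17567 to 18577 on wild-type arrays, did not overlap between the groups. Nor did the early zygotic list outside the SKN-1 pathway (6406.5 to 9111.2 and 4076.2 to 4675) or the germline markers (8031.8 to 14293 and 5198.7 to 6838.3). The lack of overlap was thus not particular to the sdz list. The maternal list, at 23046 to 60597 and 18295 to 29770, did overlap. The part of embryo stage in the sdz changes was not tested.

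**Figure D3:**
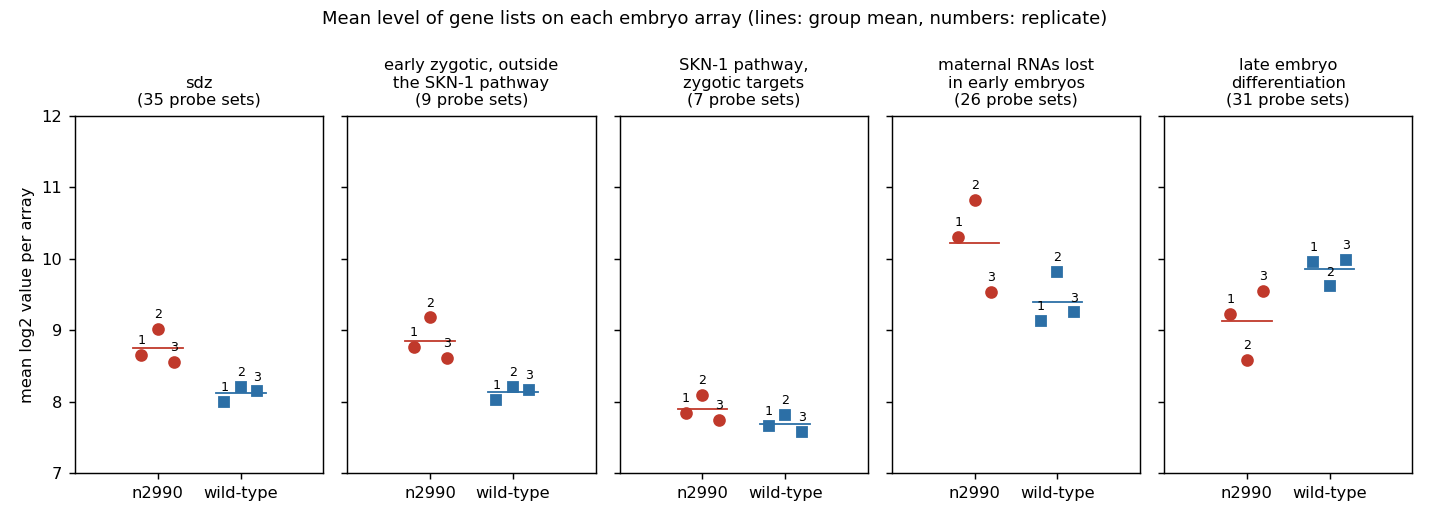
Mean log2 value (y axis) over the probe sets of 5 gene lists on each lin-54(n2990) embryo array (red circles, left) and each wild-type embryo array (blue squares, right), with replicate numbers above the points and lines at group means. The sdz means, 8.55 to 9.02 in mutants and 7.998 to 8.20 in wild-type, do not overlap. Those of the early zygotic list, 8.61 to 9.18 and 8.03 to 8.21, do not overlap either. The late-differentiation means are lower in the mutant group, and the second array is the lowest of each genotype there.

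None of the maternal genes listed with SKN-1, nor skn-1 itself, was called in either tissue. For the 3 probe sets of pop-1 and gsk-3, present on no array of either tissue, this is a statement about background signal. The list held SKN-1 itself, the posterior and zinc-finger regulators PIE-1, MEX-1 and POS-1 and the Caudal homolog PAL-1. It also held the Wnt signaling genes that polarize EMS (12 genes, 23 probe sets in the whole list). Its median log2 change was 0.32 in embryos, with 0 called higher and 0 lower. With the replicate block 1 probe set, of pal-1 (0.82), was called higher (4.27% of all). Mutant arrays lay wholly above wild-type for 5 of the 23 probe sets (15.2% of all), every pal-1 probe set among them, and wholly below for 3 (17.6% of all). The 3 below were all of lit-1, a kinase of the Wnt pathway (−0.52, −0.50 and −0.36, adjusted p = 0.112, 0.105 and 0.187 from limma, under the fold threshold). On the 3 probe sets of skn-1 the embryo groups differed by −0.07, 0.07 and 0.15 (log2), with standard errors of 0.11 to 0.18, and mutant and wild-type arrays overlapped on all of them. Probe set 174799_at measured 9.53, 9.91 and 10.03 in mutant embryos and 9.61, 10.04 and 10.03 in wild-type embryos. Changes of skn-1 below the fold threshold, or somewhat above it, could have been missed at these standard errors.

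The SKN-1 targets of the gut and mesoderm pathway were not called either. Of 8 such genes 6 are on the arrays (7 probe sets), with a median log2 change of 0.26, 0 called higher and 0 lower. end-1, a GATA factor of the E lineage, measured 9.96, 10.33 and 9.72 in mutant embryos and 9.27, 9.72 and 9.19 in wild-type embryos, a log2 change of 0.61 (standard error 0.21), which was called only with the replicate block. Its partner end-3 measured 8.29, 8.42 and 8.003 in mutant embryos and 7.89, 8.20 and 7.85 in wild-type embryos (log2 change 0.26), and was called absent on all 6 arrays, so this is background signal. med-1 measured 7.01, 7.70 and 6.48 in mutant embryos and 6.37, 6.49 and 6.50 in wild-type embryos (log2 change 0.61, standard error 0.30), so its groups overlapped. For the later gut factor elt-2 the differences were −0.22 on a probe set present on all 6 arrays and −0.18 on one that was present on none (log2). No test compared these medians between lists.

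In germlines few sdz genes were detected and 1 was called. In lin-54(n3423) germlines 0 sdz probe sets were called higher, where 0.0696% of all probe sets were, and 1 was called lower, where 0.371% of all were. The median log2 change was 0.040 over the sdz probe sets and 0.023 over all probe sets, and 27 of 35 changes were positive, where 56.6% of all were. In 0 members did the mutant germline arrays all lie above the wild-type ones (4.02% of all), and in 1 all lay below (3.15% of all). The 34 probe sets that were not called had changes of −0.39 to 0.39. For most of them this is a statement about background signal, because 24 of the 35 probe sets were called present on none of the 6 germline arrays. Of the 15 probe sets called higher in mutant embryos, 11 were present on no germline array.

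sdz-27 (WBGene00011124, chromosome IV) was the member that fell. It measured 8.18, 7.57 and 7.39 in mutant germlines, against 9.94, 9.31 and 9.23 in wild-type germlines, and was called present on 2 of 3 mutant and on 3 of 3 wild-type arrays. Its log2 change was −1.78 with a standard error of 0.29, so the wild-type level was 3.43 times that of the mutant (adjusted p = 0.716 from limma, 0.117 with the replicate block). The differences between arrays of the same number were −1.76, −1.74 and −1.84, a narrower range than the spread within either genotype. With the germline arrays numbered 1 as a batch the adjusted p-value was 0.0170 (1.23% of all probe sets were called lower in that fit), and without both of these arrays the log2 change was −1.79 (adjusted p = 0.0582). After quantile normalization of the deposited values the log2 change of sdz-27 was −1.55 and no longer called. sdz-27 had the highest wild-type germline signal of the sdz genes, was the 1 member called in both tissues, and its change had opposite signs in them.

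The marker lists gave the following values beside this fall. Of the 11 probe sets of somatic gonad and body markers 1 was called lower in mutant germlines (0.371% of all), that of inx-8 (log2 change −2.67). inx-8, an innexin gene of the sheath cells that surround the germline, measured 7.56, 7.09 and 6.97 in mutant germlines and 10.01, 9.59 and 10.02 in wild-type germlines. The other sheath genes lim-7 and ceh-18 and the muscle gene myo-3 were present on no germline array, and inx-9 was present on 1 wild-type array. The list also holds the collagen gene col-19, and 5 of its 9 genes were present on at least 2 of 3 wild-type arrays. Body genes of the late list were detected in part. The collagen gene sqt-3 was present on 3 of 3 wild-type arrays on 172820_x_at and on 0 on 174910_at. The muscle gene unc-15 was present on 2 of 3 on 175568_at and on 0 on 190436_at. noah-1 of the same list was present on 3 of 3 arrays of each genotype on 174240_at. Its log2 change there was 2.15 (standard error 0.67, not called), with all mutant arrays above wild-type. Over the 31 probe sets of the late list the germline median was 0.038, with 0 called. Mutant arrays lay wholly above wild-type for 2 (4.02% of all) and wholly below for 0 (3.15% of all). The yolk genes vit-2, vit-5 and vit-6, which are transcribed in the intestine, had log2 changes of −0.69 to −0.46 and were not called. The summed linear level of the somatic gonad and body markers ran from 1810 to 23017 on mutant and from 4094 to 17873 on wild-type germline arrays, which overlap. The maternal RNA list, whose transcripts are made in the later germline, had a median of −0.28, with summed levels of 17954 to 62713 in mutants and 22932 to 81528 in wild-type. Of this list 0 were called (1 lower with the replicate block, egg-2 at −0.61, where 0.984% of all were). The part of the dissected region or of attached sheath cells in the sdz-27 value was not tested.

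Besides sdz-27, only 5 sdz genes were called present on at least 2 of 3 wild-type germline arrays. sdz-4 measured 7.07, 6.47 and 6.44 in mutant germlines and 7.03, 6.51 and 6.38 in wild-type germlines, present on all 6 arrays, with a log2 change of 0.02 (standard error 0.25). sdz-8 measured 7.05, 6.67 and 6.84 in mutant germlines and 7.52, 6.64 and 6.70 in wild-type germlines (log2 change −0.10). sdz-37 measured 6.93, 6.63 and 6.70 in mutant germlines and 8.07, 6.66 and 6.69 in wild-type germlines, so its log2 change of −0.39 (standard error 0.41) rests on wild-type replicate 1. In all 3 genes the groups overlapped and the arrays numbered 1 were the highest of their genotype. sdz-24 measured 6.09, 5.50 and 5.59 in mutant germlines and 5.78, 5.57 and 5.72 in wild-type germlines (log2 change 0.04), and sdz-33 measured 4.46, 4.43 and 4.33 in mutant germlines and 4.40, 4.23 and 4.25 in wild-type germlines (log2 change 0.11). Levels near 4 were called present for sdz-33 while sdz-38, at 7.44, 6.80 and 6.91 in mutant germlines and 7.43, 6.77 and 6.65 in wild-type germlines, was absent on all 6 arrays, so a log2 value did not by itself tell whether a probe set was detected.

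**Figure D4:**
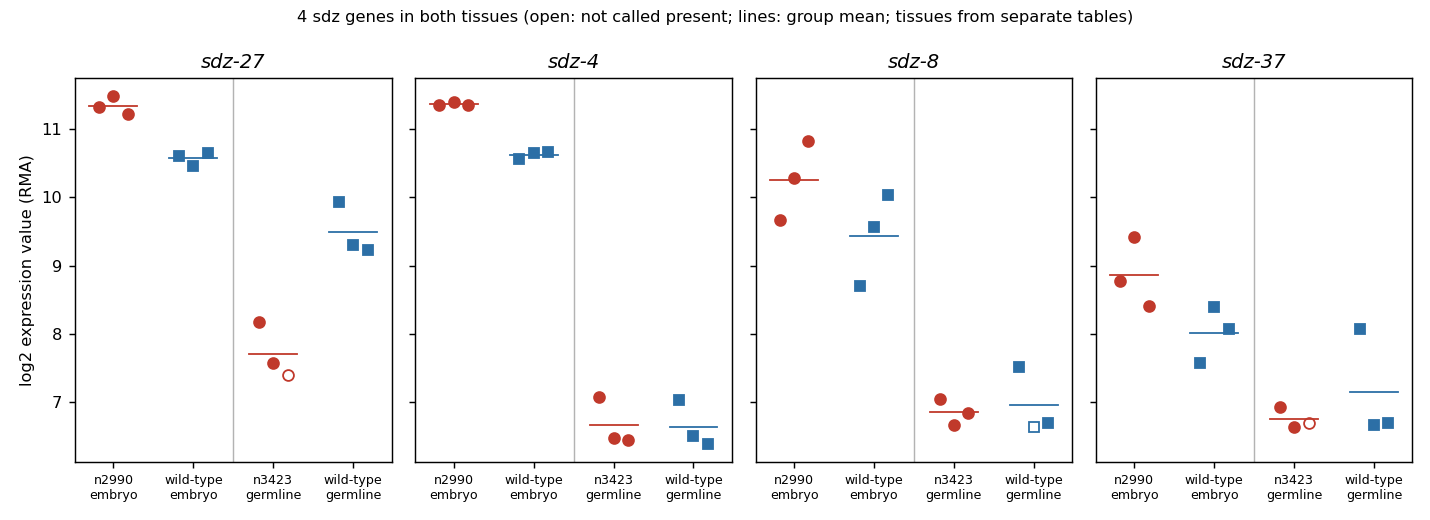
Log2 expression value (y axis) of sdz-27, sdz-4, sdz-8 and sdz-37 on each array of lin-54(n2990) and wild-type embryos and of lin-54(n3423) and wild-type germlines (x axis; red circles mutant, blue squares wild-type, open symbols not called present, lines group means). The tissues come from separate tables; within them, sdz-27 is higher in mutant embryos and lower in mutant germlines, and sdz-37 has 1 wild-type germline array at 8.07 above the others.

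The change in germlines was then compared with the change in embryos in 1 model over all 12 arrays. The difference was called for 10 sdz probe sets (28.6%), all with a lower change in germlines, where 1.90% of all probe sets were, and for 0 with a higher one, where 1.04% of all were. It was largest for sdz-27, at −2.55 with a standard error of 0.32 (adjusted p = 0.0201), the only member to reach an adjusted p of 0.05 or less, as did 0.125% of all probe sets with a lower change in germlines and 0.00928% with a higher one (0 members). Its difference stayed called under each alternative run, the leave-one-out fits included, and was smallest after quantile normalization (−2.05, adjusted p = 0.121). For sdz-1 it was −1.15, for sdz-13 −1.13, for sdz-16 −1.10 and for sdz-14 (178706_s_at) −1.06. For sdz-15, sdz-30, sdz-31, sdz-19 and sdz-10 it was between −0.89 and −0.60. The adjusted p-values of these other probe sets were 0.162 to 0.302, and 8 of the 10 were present on no germline array, so that a change in embryos was set against a background signal in germlines. With the replicate block 14 were called (5.17% of all probe sets were lower in germlines in that fit), with sdz-19, sdz-30 and sdz-31 lost and sdz-2, sdz-4, sdz-8, sdz-9, sdz-14 (173489_at), sdz-18 and sdz-32 gained. The count was 4 without germline mutant replicate 2, germline mutant replicate 3 or germline wild-type replicate 1, with 1.55%, 1.28% and 2.63% of all called in that direction. It was 5 without embryo wild-type replicate 1 (1.32% of all) and 6 without both germline arrays numbered 1 (4.16% of all).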

How the data were processed

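Per the paper's methods, the authors summarized and normalized the arrays with rma from the affy package, and deposited log2 values and detection calls per probe set and array in 1 table per tissue, with genes from WormBase WS190. The deposited tables also hold the authors' own fold changes, mean levels and p-values, which were not used. Versions, and whether the tissues were normalized together, are not given in the sources used here.

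Each tissue was fitted over all 21541 probe sets, mutant minus wild-type, with limma 3.58.1 in R 4.3.3 (lmFit and eBayes), with calls at an unadjusted p of 0.01 or less and 1.5-fold or more as in the study's methods, and Benjamini-Hochberg adjustment over all probe sets. Over the whole array the germline fit called 15 probe sets higher and 80 lower, fewer than the genes the paper reports by this rule. With the germline arrays numbered 1 as a batch the counts were 76 and 266. Standard errors are limma's moderated ones. The tissues were compared by an interaction contrast over 12 arrays. The script was tested on simulated data. With 3 arrays a group, the smallest p of an exact permutation test is 0.1. The number of arrays limits the precision.

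Replicate numbers were checked for pairing. Arrays of the same number, after subtraction of genotype means, had correlations of 0.246, 0.362 and 0.276 in embryos and 0.834, 0.363 and 0.392 in germlines. The fit with the replicate number as a block was therefore run beside the main one.

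The members and marker lists were chosen with earlier results of these data known. Named are members called in a tissue or in the interaction, members with several probe sets, the 3 highest and 3 lowest wild-type embryo levels among members present on all those arrays, members present on at least 2 of 3 wild-type germline arrays, and pathway genes called. Other genes with values (among them sdz-26, sdz-32, sdz-36, sdz-38, skn-1, end-1, end-3, med-1, elt-2, lit-1 and tbx-38) were added after their values were seen. Alternatives were the adjusted p, other fold thresholds, the block, the germline arrays numbered 1 as a batch, a mean log2 value of at least 6, only _at probe sets, gene means, a trended robust prior, array weights, median centring, quantile normalization and leaving out arrays. A search of promoters for motifs was planned and not run here. Figures used Python 3.11.15 and matplotlib 3.10.9.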

Additional observations from a re-analysis of the deposited data

Results flagged for a closer look

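10 sdz probe sets were marked because the mutant change in germlines differed from that in embryos by the test of the difference itself, each lower in germlines, where 1.90% of all probe sets were lower and 1.04% higher. Of the 10, 8 were present on no germline array, so an embryo change was set against background signal there. The germline change minus the embryo change, on the log2 scale, was −2.55 for sdz-27 (higher in mutant embryos, lower in mutant germlines), −1.15 for sdz-1, −1.13 for sdz-13, −1.10 for sdz-16 and −1.06 for sdz-14. It was −0.89 for sdz-15, −0.88 for sdz-30, −0.82 for sdz-31, −0.63 for sdz-19 and −0.60 for sdz-10. By limma over all probe sets, sdz-27 had an adjusted p of 0.0201 and the others 0.162 to 0.302. Allele, temperature and labeling differ together with tissue here and cannot be told apart from it.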

How the results depend on the processing

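The number of calls varied with the processing. For the 26 sdz changes called in the main fits, 520 alternative values were computed. Of these 0 changed direction, 386 kept direction and call, and 134 kept the direction but lost the call. The 26 were chosen by their call on the same arrays, so the kept direction is no separate support. Members that were not called are not in this count. With an adjusted p of at most 0.05 in place of the rule, the count higher in mutant embryos was 1 (0.246% of all), the count lower in mutant germlines 0 and the count of differences between tissues 1. With a fold change of at least 2, the embryo count was 4 (1.14% of all probe sets higher) and that of differences 5 (1.04% of all lower in germlines). Array weights, whose estimation stopped before full convergence, gave 21 higher in embryos (7.68% of all higher and 6.88% lower) and 18 differences between tissues (8.95% of all lower in germlines), and quantile normalization gave 0 sdz probe sets lower in mutant germlines. Without both germline arrays numbered 1, an alternative chosen after seeing the data, 6 differences were past the threshold (4.16% of all). Leaving out 1 array gave 8 to 19 probe sets higher in mutant embryos and 4 to 14 differences. The median embryo change was 0.54 to 0.75 and the germline median −0.0045 to 0.12 with an array left out. sdz-27 kept its germline call in all 6 such fits. No sdz probe set was called lower in embryos or higher in germlines under any alternative run. Centring on array medians moved the median of all embryo probe sets to 0.10 and that of the sdz probe sets to 0.81. The replicate block gave 19 higher in embryos, 1 lower in germlines and 14 differences between tissues, and changed the embryo calls of 6 members given above. The causes were not tested. Signal at background limits what the germline arrays can show for the 24 probe sets present on none of them.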
